A study of Mus musculus with 20 samples.

Results

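The aryl hydrocarbon receptor (AHR) system was followed through 8 genes in the uteri of mice before embryo attachment. These were the receptor gene Ahr and its partner Arnt, the feedback genes Ahrr and Tiparp, the cytochrome P450 genes Cyp1b1, Cyp1a1 and Cyp1a2, and the quinone reductase gene Nqo1. They were taken by symbol from a table of 45777 genes. They are taken to have been chosen by a measured value, the higher Cyp1b1 of PBMC-hCG mice over IF mice, which was already known from these same libraries. Whether values of the other groups entered the choice is not known. That comparison is therefore given for the 8 genes as a description, without a test, and so is every comparison of Cyp1b1. Of the 8 genes, 6 were above 0 in all 20 libraries and entered the tests together with the rest of the 18706 genes that met this filter. Cyp1a1 and Cyp1a2 did not meet it and are described only.

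Whole uterine RNA from 20 wild-type B6D2F1 females aged 8 to 12 weeks was sequenced, with 5 mice in each of 4 groups and 1 library per mouse. All females had been mated, and all uteri were collected at 18:00 on day 3.5 of pregnancy. Control mice received neither drug nor cells. Mice of the IF (implantation failure) group were given 3 mg/kg RU486 under the skin at 9:00 on day 3.5, and the PBMC and PBMC-hCG groups received the same dose. RU486 (mifepristone) blocks the progesterone and glucocorticoid receptors. Mice of the PBMC group had also received 50000 peripheral blood mononuclear cells (PBMCs) per uterine horn on day 1.5. The cells came from non-pregnant females and had been cultured for 24 hours. For the PBMC-hCG group, 5 IU/mL human chorionic gonadotropin (hCG) was added to that culture. Control and IF mice had no intrauterine injection in the description used here, and mice given medium alone were not analysed here, so the injection and the cells cannot be told apart when a PBMC group is compared to the IF group. The labels give no batch or date.

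AHR is a ligand-activated transcription factor of the bHLH-PAS family that waits in the cytosol with HSP90 and co-chaperones such as p23. After binding a ligand, such as dioxin or a tryptophan metabolite, it enters the nucleus, pairs with ARNT and binds DNA at xenobiotic response elements. The CYP1 genes, Ahrr and Tiparp are among its best known targets. AHRR competes with AHR for ARNT, and TIPARP is a mono-ADP-ribosyltransferase that dampens AHR. CYP1B1 hydroxylates estradiol to the catechol 4-hydroxyestradiol as well as oxidizing xenobiotics. In the mouse uterus, catechol estrogens have been studied as local signals around implantation.

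The start regions of 4 of these genes are shown because Cyp1b1 and Tiparp were both lower than control after RU486, the mean of Ahrr was highest in the PBMC-hCG group, and Cyp1a1 is the classical inducible target. Each run reads from 250 bases before to 50 bases after an annotated transcript start in RefSeq (GRCm38.p6), in the direction of the gene. Capitals mark the core of the xenobiotic response element, GCGTG, or its reverse complement on the other strand. The Cyp1b1 window is chr17:79715012-79715311 on the minus strand, that of Tiparp chr3:65528197-65528496 on the plus strand, that of Ahrr chr13:74292282-74292581 on the minus strand, and that of Cyp1a1 chr9:57697363-57697662 on the plus strand.
Cyp1b1: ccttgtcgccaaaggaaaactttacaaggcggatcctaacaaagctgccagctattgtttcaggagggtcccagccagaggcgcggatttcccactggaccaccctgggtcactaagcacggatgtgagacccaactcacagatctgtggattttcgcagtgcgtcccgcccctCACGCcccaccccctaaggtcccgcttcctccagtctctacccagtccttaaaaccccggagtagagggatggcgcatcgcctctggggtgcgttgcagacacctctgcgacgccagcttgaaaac
Tiparp: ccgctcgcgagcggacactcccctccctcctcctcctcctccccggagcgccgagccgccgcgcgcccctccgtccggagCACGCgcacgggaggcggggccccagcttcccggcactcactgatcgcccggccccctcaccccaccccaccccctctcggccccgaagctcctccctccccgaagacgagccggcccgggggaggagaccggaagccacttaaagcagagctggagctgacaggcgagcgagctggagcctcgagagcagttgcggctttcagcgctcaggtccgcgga
Ahrr: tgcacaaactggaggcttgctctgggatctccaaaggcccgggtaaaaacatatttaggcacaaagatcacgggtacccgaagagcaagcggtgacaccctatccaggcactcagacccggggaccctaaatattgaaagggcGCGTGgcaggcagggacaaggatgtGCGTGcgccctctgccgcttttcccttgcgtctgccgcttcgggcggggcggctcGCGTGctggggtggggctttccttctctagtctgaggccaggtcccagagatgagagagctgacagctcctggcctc
Cyp1a1: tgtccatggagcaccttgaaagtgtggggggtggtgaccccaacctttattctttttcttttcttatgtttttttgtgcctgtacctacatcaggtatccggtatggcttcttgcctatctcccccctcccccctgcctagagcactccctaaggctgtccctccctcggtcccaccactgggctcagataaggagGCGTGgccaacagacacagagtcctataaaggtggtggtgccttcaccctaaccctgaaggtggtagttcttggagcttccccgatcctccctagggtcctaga

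The core lay 76 bases before the start in Cyp1b1 and 170 bases before it in Tiparp, on the strand opposite to the gene in both. Ahrr held it 3 times, 107, 82 and 27 bases before the start, and Cyp1a1 once, 54 bases before it. Arnt held it 29 bases before the start, so 5 of the 7 genes with a window had the core. Windows were matched for Cyp1b1, Cyp1a1, Cyp1a2, Ahrr, Arnt, Tiparp and Nqo1. A match to 5 letters is common, and 32.4% of all 32851 windows held the core on either strand. The longer form TNGCGTG, which contains the core, was present in 1 of the 7 (Ahrr, the copy nearest the start) and in 5.07% of all windows. Matches and their absence describe the letters of these windows only.

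Values are TPM, transcript abundances that are adjusted for transcript length and scaled to a fixed total, so levels can be compared between genes as well as between mice. Library totals ranged from 999988 to 999999. Read depth is thus unknown and no counting error can be given. Tests used limma on log2(TPM + 0.1) with all 4 groups in a shared fit. Adjusted p-values are those of Benjamini and Hochberg over the 18706 genes. The p-values weigh a difference between groups against the spread between mice, which is estimated over all 4 groups and moderated across genes. On this scale, differences of genes at low TPM are drawn toward 0. Defining markers of stroma, epithelium, myometrium, endothelium and immune cells were all above 0 in every library. In whole tissue, fewer cells of a type and less RNA per cell cannot be told apart. Control replicate 2 stood apart, with a summed level of 8 adipocyte genes of 463 TPM against 0.0553 to 27.3 TPM in the other control mice, and with the lowest stromal sum of all (3980 TPM). It had the lowest Ahr, Arnt, Tiparp and Nqo1 and the highest Ahrr of the 5 control mice, and results that change without it are given with both values. IF replicate 5 had the next highest adipocyte sum, 98.7 TPM.

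Ahr and Arnt were both higher than control in the 3 groups that had received RU486. Ahr (chromosome 12, 35497979 to 35534989, GRCm38.p6) measured 14.7, 9.67, 12.2, 16.3 and 11.8 TPM in control replicates 1 to 5. The IF mice measured 18.1, 17.1, 15.99, 15.1 and 23.97 TPM. Only the control mouse at 16.3 TPM reached into the IF range, and IF replicate 5 stood highest of all 20 mice. The PBMC mice measured 16.1, 15.3, 18.8, 17.5 and 20.4 TPM and the PBMC-hCG mice 16.9, 16.6, 15.9, 15.7 and 16.5 TPM. The PBMC-hCG mice lay close together, with an SD of 0.501 TPM around a mean of 16.3 TPM (n = 5), while the SD of the IF group was 3.50 TPM around 18.0 TPM and that of the control group 2.59 TPM around 12.9 TPM. In the IF group, Ahr was 1.39-fold the control level (log2 difference 0.48 ± 0.13 SE, adjusted p = 0.0125). It was 1.36-fold higher in the PBMC group (0.46 ± 0.13, adjusted p = 0.0181). The difference of the PBMC-hCG group from control was smaller (1.26-fold, 0.35 ± 0.13, adjusted p = 0.0453). This last call did not survive the removal of single mice in 13 of 20 cases, namely control replicates 2, 3 and 5, IF replicates 1 and 2, PBMC replicates 1, 3 and 4 and all 5 PBMC-hCG replicates. Without control replicate 2 its log2 difference was 0.26 with an adjusted p of 0.105. The calls for the IF and PBMC groups held with each mouse left out (adjusted p from 0.00478 to 0.0382 and from 0.00677 to 0.0451), but neither held in a fit of only the 2 groups compared (adjusted p = 0.0749 and 0.0564). Arnt, by contrast, stayed called in the IF group in every fit that tested it by adjusted p.

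Arnt (chromosome 3, 95434367 to 95497240), which encodes the obligate nuclear partner, was the most abundant of the 8 genes. It measured 46.3, 38.4, 44.5, 45.8 and 41.0 TPM in the control mice and 49.6, 52.8, 51.0, 50.6 and 52.8 TPM in the IF mice. The PBMC mice measured 49.4, 50.2, 47.1, 50.9 and 50.7 TPM and the PBMC-hCG mice 50.2, 50.1, 50.1, 47.8 and 50.5 TPM. Every mouse given RU486 was above every control mouse, although the change was small. The mean was 1.19-fold higher in the IF group (log2 difference 0.25 ± 0.05 SE, adjusted p = 0.00114), 1.15-fold higher in the PBMC group (0.20 ± 0.05, adjusted p = 0.00643) and 1.15-fold higher in the PBMC-hCG group (0.21 ± 0.05, adjusted p = 0.00394). The 3 comparisons share the control libraries and are not independent of each other. In the PBMC group the call was lost in a fit of only the 2 groups (adjusted p = 0.0586). Without control replicate 2 the log2 differences were 0.21, 0.16 and 0.16, and the adjusted p-values were 0.00136, 0.00978 and 0.00545.

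Like Ahr and Arnt, endothelial markers were higher than control after RU486. All 5 of them (Pecam1, Cdh5, Kdr, Tek and Emcn) were called higher than control in each of the 3 RU486-treated groups. Of all tested genes, 13.4%, 12.8% and 20.2% were called higher in the IF, PBMC and PBMC-hCG groups. The summed level of these markers was 316 to 425 TPM in control mice and 473 to 510 TPM in IF mice. It was 479 to 545 TPM in PBMC mice and 523 to 590 TPM in PBMC-hCG mice, and control overlapped no other group. Among the treated groups this sum had its lowest median in IF mice, where the means of Ahr and Arnt were highest. Per 1000 TPM of this sum, Ahr measured 30.1 to 38.3 TPM among control mice compared to 30.6 to 50.7 TPM among IF mice, and these ranges overlapped. For Arnt the same ratio was 108 to 122 TPM among control mice compared to 98.4 to 112 TPM among IF mice. In PBMC and PBMC-hCG mice the Arnt ratio was 91.7 to 106 TPM and 84.9 to 96.6 TPM, both wholly below the control range, whereas Arnt itself was above it. The Ahr ratio was 28.7 to 42.5 TPM and 26.9 to 31.6 TPM, and both ranges overlapped that of control. Epithelial markers also rose, with 4 of 6 called higher in each RU486-treated group and 1 of 6 called lower in the IF and PBMC-hCG groups. Of 6 immune cell markers, 2, 1 and 3 were called higher in the IF, PBMC and PBMC-hCG groups, and of 5 myometrial markers 1, 0 and 4 were called lower. The shares of all tested genes called lower were 8.53%, 6.7% and 11.6% in the same order. The part of these markers in the Ahr and Arnt results was not tested.

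**Figure D1:**
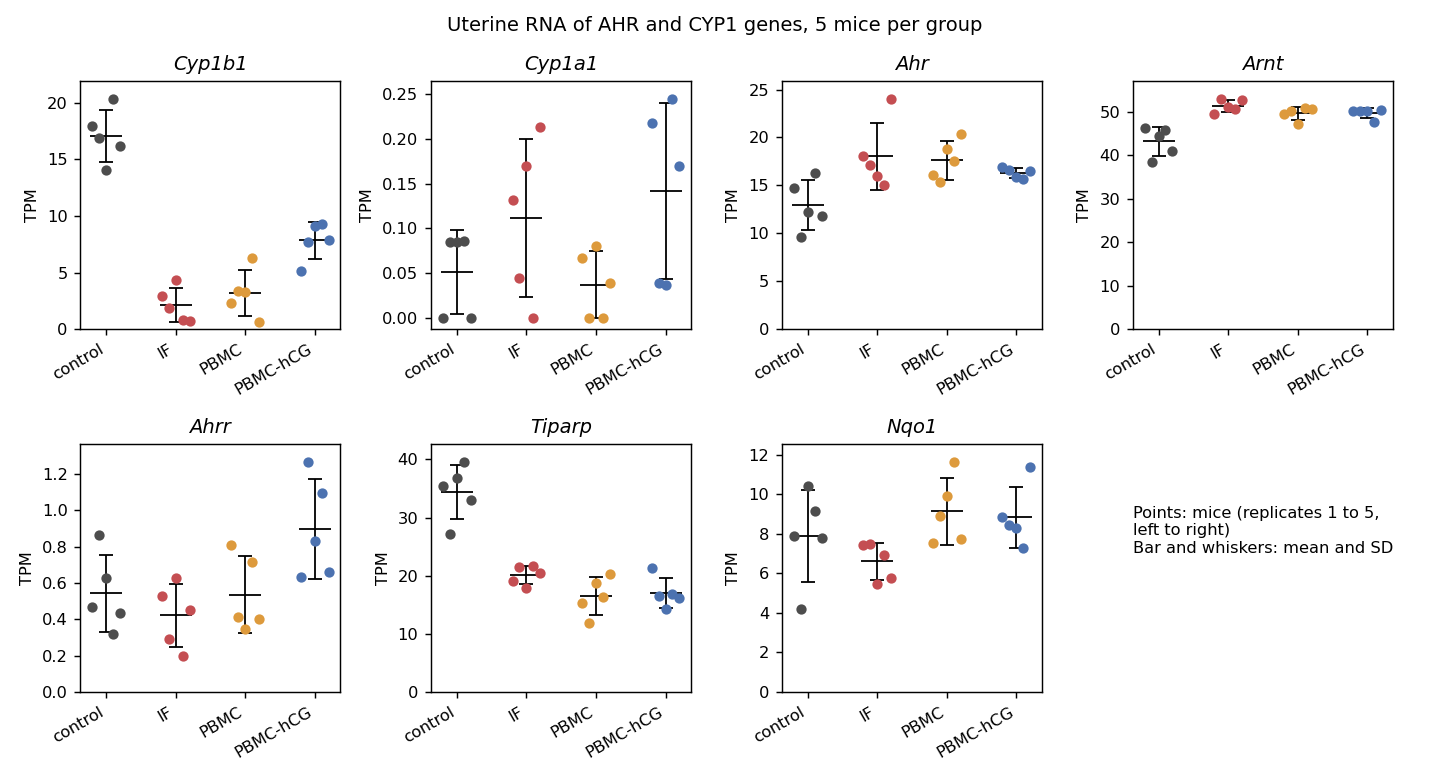
TPM (vertical axes, linear, each with its own range) of 7 of the 8 genes in the 4 groups (horizontal axes), with a point for each mouse and a bar and whiskers for mean and SD (n = 5). Cyp1b1 and Tiparp of every RU486-treated mouse lie below the lowest control mouse (14.1 and 27.1 TPM), and Arnt of every RU486-treated mouse lies above the highest (46.3 TPM). Cyp1a2 is not drawn because it was listed at 0 in all 20 mice.

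Tiparp (chromosome 3, 65528447 to 65555518), the feedback gene of the ADP-ribosyltransferase, was lower in all RU486-treated groups. The control mice measured 35.4, 27.1, 36.8, 39.5 and 33.0 TPM. The IF mice measured 19.1, 21.4, 17.9, 21.6 and 20.4 TPM. The PBMC mice measured 15.4, 11.8, 18.8, 16.3 and 20.4 TPM and the PBMC-hCG mice 21.4, 16.6, 14.3, 16.9 and 16.2 TPM. No RU486-treated mouse reached the lowest control mouse, and the 3 treated groups overlapped each other. Compared to control, Tiparp was 1.71-fold lower in the IF group (log2 difference -0.76 ± 0.13 SE, adjusted p = 0.000392). It was 2.08-fold lower in the PBMC group (-1.06 ± 0.13, adjusted p = 1.90e-05) and 2.01-fold lower in the PBMC-hCG group (-1.01 ± 0.13, adjusted p = 2.72e-05). All 3 calls held with each mouse left out, the largest adjusted p being 0.00174. Between the PBMC and IF groups, the log2 difference of -0.30 had a 95% interval of -0.58 to -0.02 and was not called (adjusted p = 0.724).

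Ahrr (chromosome 13, 74211118 to 74292331), the repressor, reached at most 1.26 TPM. It measured 0.470, 0.861, 0.628, 0.320 and 0.432 TPM among control mice compared to 0.529, 0.294, 0.630, 0.200 and 0.453 TPM among IF mice. The PBMC mice measured 0.807, 0.411, 0.346, 0.717 and 0.400 TPM and the PBMC-hCG mice 0.632, 1.26, 0.830, 1.10 and 0.659 TPM. The lowest PBMC-hCG mouse lay just above the highest IF mouse, at 0.632 against 0.630 TPM, while both other groups overlapped the PBMC-hCG group. As a description, the PBMC-hCG mean was 2.13-fold the IF mean (log2 difference 0.96 ± 0.28 SE), and 0.41 with a pseudocount of 1. Compared to the PBMC group, the PBMC-hCG mean was 1.67-fold higher (0.66 ± 0.28) but was not called (adjusted p = 0.289). Compared to control it was 1.65-fold higher (0.65 ± 0.28, adjusted p = 0.0855), and this difference passed only when control replicate 2 was left out (0.81, adjusted p = 0.0299). The IF and PBMC groups differed from control by -0.31 ± 0.28 and -0.02 ± 0.28, without a call (adjusted p = 0.472 and 0.979).

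Cyp1b1 (chromosome 17, 79706940 to 79715061) was the only CYP1 gene to reach 1 TPM in any mouse. It was highest in the control mice, at 17.9, 16.9, 14.1, 20.3 and 16.1 TPM. The IF mice measured 2.90, 1.84, 4.37, 0.829 and 0.718 TPM. The PBMC mice spread from 0.660 TPM in replicate 5 to 6.27 TPM in replicate 4, with 2.29, 3.38 and 3.27 TPM in replicates 1 to 3. The PBMC-hCG mice measured 5.17, 7.69, 9.13, 9.34 and 7.91 TPM. In the order of means, control (17.1 ± 2.30 TPM, SD, n = 5) stood above PBMC-hCG (7.85 ± 1.66 TPM), PBMC (3.17 ± 2.04 TPM) and IF (2.13 ± 1.53 TPM). The control group overlapped no other group, the PBMC-hCG group overlapped the PBMC group through PBMC replicate 4, and the PBMC and IF groups overlapped widely.

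The differences of Cyp1b1 are descriptions without a test. The PBMC mean was 5.38-fold below the control mean (log2 difference -2.67 ± 0.47 SE), and with each mouse left out the difference stayed between -2.99 and -2.22. The IF mean was 8.01-fold below the control mean (-3.23 ± 0.47). The PBMC-hCG mean was 3.68-fold the IF mean (2.10 ± 0.47) and 2.47-fold the PBMC mean (1.54 ± 0.47). The PBMC-hCG mean remained 2.18-fold below control (-1.13 ± 0.47). The PBMC group differed from the IF group by 0.56, with a 95% interval of -0.43 to 1.54. All these comparisons of the PBMC-hCG group use the same 5 libraries.

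Stromal markers were set beside Cyp1b1. Of 5 markers, 1 was called higher and 1 lower in IF mice than in control mice, with a median log2 difference of 0.03. The shares of all tested genes were 13.4% and 8.53%. Compared to the IF group, 2 of the 5 were called higher in the PBMC-hCG group, with a median of 0.21. There 13.6% of all tested genes were called, 7.61% of them all as higher. Calls in this comparison depend on single mice, since between 0 and 5061 genes were called with each mouse left out in turn. Per 1000 TPM of the stromal gene Pdgfra, Cyp1b1 measured 92.3 to 134 TPM in control mice, 6.19 to 26.2 TPM in IF mice, 6.89 to 43.5 TPM in PBMC mice and 35.8 to 52.2 TPM in PBMC-hCG mice. The ratio to Hoxa10, a homeobox gene of uterine stroma, gave the same order of medians, with 55.5 to 79.0, 5.80 to 25.5, 6.38 to 36.8 and 31.3 to 50.3 TPM per 1000 TPM. The control range overlapped no other range in either ratio, nor in the ratio to Dcn, which was 7.95 to 12.3 among control mice and at most 2.42 TPM per 1000 TPM in the other mice. In the ratios to the collagen genes Col1a1 and Col3a1, the control range lay above those of IF and PBMC mice but overlapped that of PBMC-hCG mice. For Col1a1 these were 7.48 to 25.4 in control and 3.13 to 7.88 in PBMC-hCG mice, and for Col3a1 4.51 to 18.2 and 2.10 to 5.13 TPM per 1000 TPM. Myometrial markers had a median log2 difference of -0.35 between the PBMC-hCG and IF groups, with 0 of 5 called. The part of tissue makeup in the Cyp1b1 differences was not tested.

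The other CYP1 genes were at or near 0. Cyp1a1 (chromosome 9, 57687928 to 57703824) reached at most 0.244 TPM, in PBMC-hCG replicate 4. It was listed at 0 in 2 control, 1 IF and 2 PBMC mice and above 0 in all 5 PBMC-hCG mice, where it ranged from 0.0370 TPM upward. The ranges of all groups overlapped. Cyp1a2 (chromosome 9, 57676937 to 57683655), mainly a liver enzyme, was listed at 0 in all 20 mice. Because the depth is unknown, no upper limit can be set on either gene.

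**Figure D2:**
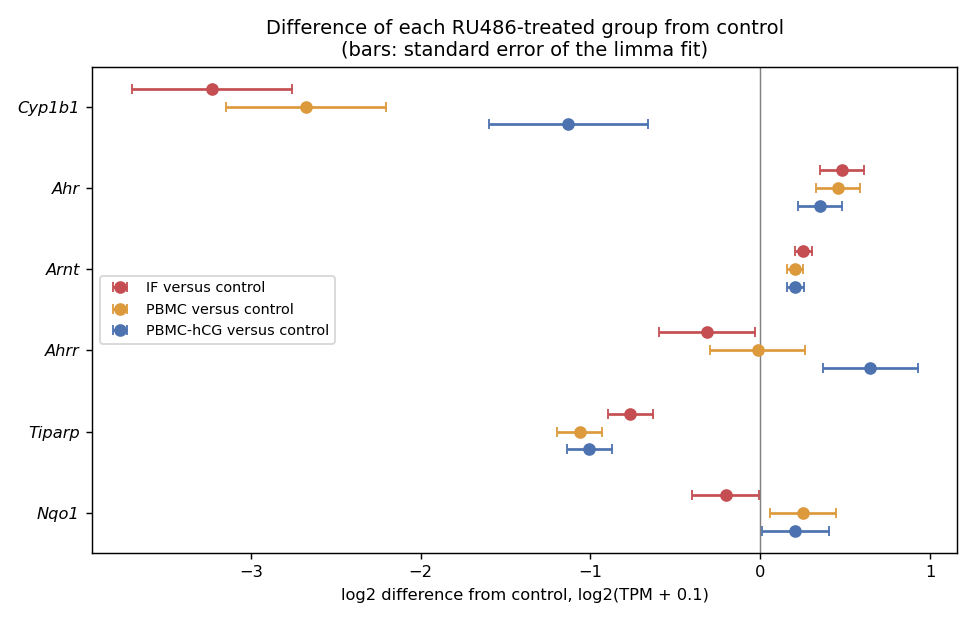
Log2 differences of 6 genes between each RU486-treated group and control (horizontal axis, log2(TPM + 0.1)), with points for the limma estimate and bars for its standard error. Cyp1b1 moves from -3.23 in the IF group to -1.13 in the PBMC-hCG group, whereas Tiparp lies between -0.76 and -1.06 in all 3 groups and Ahr and Arnt lie to the right of 0.

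Nqo1 (chromosome 8, 107388225 to 107403205), a quinone reductase that both AHR and NRF2 can induce, varied widely among control mice. They measured 7.90, 4.19, 10.4, 9.15 and 7.80 TPM. The IF mice measured 7.42, 7.49, 5.45, 6.91 and 5.76 TPM, and the PBMC mice 7.51, 8.91, 9.93, 11.6 and 7.73 TPM. All PBMC mice were above all IF mice, though the nearest pair differed only from 7.49 to 7.51 TPM. The PBMC-hCG mice measured 8.85, 8.43, 8.28, 7.26 and 11.4 TPM. The PBMC mean was 1.38-fold that of the IF group (log2 difference 0.46 ± 0.20 SE) and was not called (adjusted p = 0.716). The PBMC-hCG group differed from the IF group by 0.41 ± 0.20 as a description. The IF group differed from control by -0.20 ± 0.20 (adjusted p = 0.504), and by -0.41 with an adjusted p of 0.0494 when control replicate 2 was left out.

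Counted over the 5 tested genes other than Cyp1b1, 3 were called at an adjusted p under 0.05 in the IF group compared to control, where 21.9% of all tested genes were called. These were Ahr and Arnt, which rose, and Tiparp, which fell. The same 3 genes were called in the PBMC group compared to control (19.5% of all genes) and in the PBMC-hCG group compared to control (31.8%). Under the criteria of the study, which are a change of 2-fold or more with a raw p under 0.05, 0 of 5 passed in the IF group (4.03% of all genes) and only Tiparp in the PBMC and PBMC-hCG groups (3.34% and 4.74%). Between the PBMC and IF groups 0 of 5 were called by limma, as were 0 of all genes (0%). At a raw p under 0.05, 2 of the 5 (Tiparp and Nqo1) and 6.79% of all genes passed there. Between the PBMC-hCG and PBMC groups 0 of 5 were called, against 0.0107% of all genes, and at a raw p under 0.05 only Ahrr and 16.2% of all genes passed. Ranges of IF and control mice did not overlap in 3 of 6 genes (Cyp1b1, Arnt and Tiparp), and in 12.8% of all tested genes. The same 3 did not overlap control in the PBMC mice (12.7% of all genes) and in the PBMC-hCG mice (18.3%). Only Nqo1 did not overlap for PBMC against IF (1.01%), and 0 of 6 did so for PBMC-hCG against PBMC (3.46%). For PBMC-hCG against IF, Cyp1b1 and Ahrr were the 2 of 6 genes without overlap (7.24% of all genes). Ahr, Arnt, Tiparp and Nqo1 differed there by -0.13, -0.05, -0.24 and 0.41 on the log2 scale, and their ranges overlapped.

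Over the 20 libraries, Ahr and Arnt had a Pearson correlation of 0.825 on the log2 scale, and 0.63 after the group means were removed. Their Spearman correlation was 0.595. Control replicate 2 had the lowest level of both genes, and correlations were not repeated without it. Cyp1b1 and Tiparp, which both had their highest levels in the control group, had a Pearson correlation of 0.445, and of -0.455 once group means were removed. Cyp1b1 and Ahr had -0.67, and -0.286 without group means. These values are descriptions over libraries that share treatment groups and tissue makeup, and no p is attached to them.

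Genes around the receptor were examined as 6 lists, 71 genes in all, of which 56 were tested. They were written from general knowledge but with earlier results of these data known, so their counts are not a blind test. The lists hold AHR complex members and coregulators, other bHLH-PAS factors, further AHR-inducible genes, tryptophan and kynurenine enzymes, cytochrome P450 partners with catechol estrogen enzymes, and NRF2 target genes. In the IF group compared to control, 13 of the 56 were called higher and 7 lower. The median log2 difference of the 56 was 0.11 against 0.02 for all tested genes. Of all tested genes, 13.4% were called higher and 8.53% lower there. Against control, 17 of the 56 were called in PBMC mice, where 19.5% of all tested genes were called, and 19 in PBMC-hCG mice, where the share was 31.8%.

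Between the PBMC-hCG and IF groups, 10 of the 56 listed genes were called, 4 higher and 6 lower, beside 13.6% of all tested genes (7.61% higher and 5.99% lower). These calls depend on single mice, and this holds for each listed gene named below as called between these 2 groups. When each of the 20 mice was left out in turn, 0 of the 56 were called without any of 7 of them, which were IF replicates 2, 4 and 5 and PBMC-hCG replicates 2, 3, 4 and 5, and 22 were called without IF replicate 3. Without control replicate 2 there were 17, without PBMC replicate 5 there were 18, and without PBMC-hCG replicate 1 there were 20. For PBMC against IF and for PBMC-hCG against PBMC, 0 of the 56 were called by limma.

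Of the 12 AHR complex and coregulator genes, 4 were called higher in the IF group than in control and 0 lower. Of all tested genes, 13.4% were called higher and 8.53% lower there. Ncoa3, a coactivator of nuclear receptors, measured 16.7 ± 1.12 TPM among control mice compared to 21.5 ± 2.58 TPM among IF mice (log2 difference 0.36 ± 0.08 SE, adjusted p = 0.00386). Relb, an NF-kappaB subunit that can pair with AHR, rose by 0.34 (adjusted p = 0.00236). Chaperone genes that did not pass there had log2 differences of -0.24 for Hsp90aa1, -0.02 for Hsp90ab1 and -0.04 for Ptges3, which encodes p23. In the PBMC-hCG group compared to control, Hsp90aa1 (-0.85, adjusted p = 0.00817) and Ptges3 (-0.46, adjusted p = 0.0249) were the 2 of 12 called lower. Another 5 were called higher in that comparison, and 11.6% of all tested genes were called lower and 20.2% higher. In the PBMC-hCG group compared to the IF group, 2 of the 12 were called lower, beside 5.99% of all tested genes. The 2 included the NF-kappaB subunit gene Rela (-0.22, adjusted p = 0.0472).

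The largest change among the listed bHLH-PAS relatives was that of Hif3a, which encodes a hypoxia-inducible factor subunit that can act as an inhibitor. It ranged from 4.38 to 8.12 TPM in control mice, from 0.325 to 1.10 TPM in IF mice, from 0.393 to 0.962 TPM in PBMC mice and from 1.21 to 1.42 TPM in PBMC-hCG mice. The IF group lay 9.47-fold below control (log2 difference -3.13 ± 0.26 SE, adjusted p = 1.44e-07). All PBMC-hCG mice lay above all IF mice (0.85 ± 0.26, adjusted p = 0.0398), and they remained 5.25-fold below control (-2.28 ± 0.26, adjusted p = 5.54e-06). Arntl, the clock factor also called Bmal1, rose in the IF group by 0.82 (adjusted p = 0.000114), and Epas1, the hypoxia-inducible factor of endothelium, rose by 0.63 (adjusted p = 4.60e-06). Npas2, a further clock factor, rose by 0.50 (adjusted p = 0.0151). Of the 10 tested genes of the list, 4 were called higher and 1 lower there, beside 13.4% and 8.53% of all tested genes. The endothelial markers given above were, like Epas1, higher in the IF group than in control. Their part was not tested.

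Further AHR-inducible genes went both ways, as 3 of 10 were called higher and 1 lower in the IF group compared to control. The shares of all tested genes were 13.4% and 8.53%. Slc7a5, an amino acid transporter, rose from 37.0 ± 2.51 to 64.2 ± 14.4 TPM (log2 difference 0.77 ± 0.18 SE, adjusted p = 0.00523). Hes1, a Notch target, rose by 0.62 (adjusted p = 0.0284), and Nfe2l2, which encodes NRF2, by 0.30 (adjusted p = 0.000129). Selenbp1, a selenium-binding protein, fell from 40.6 ± 11.3 to 25.7 ± 6.66 TPM (-0.65 ± 0.20, adjusted p = 0.0223). In the PBMC-hCG group compared to the IF group, Slc7a5 was called lower (-0.72, adjusted p = 0.0290) and Selenbp1 higher (0.72, adjusted p = 0.0321). The glucuronosyltransferases Ugt1a6a and Ugt1a6b share exons, so their split is uncertain. Both were near the threshold in that comparison (0.44 and 0.48, adjusted p = 0.0521 and 0.0644).

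The enzymes around CYP1B1 and its catechol products included Sult1d1 and Sult1a1, which both fell in the IF group compared to control. Sult1d1, a sulfotransferase, measured 115 to 173 TPM among control mice compared to 10.2 to 39.8 TPM among IF mice, a 6.57-fold lower mean (log2 difference -2.85 ± 0.28 SE, adjusted p = 1.01e-06). Sult1a1, the phenol sulfotransferase, measured 60.4 to 88.3 TPM and 16.3 to 35.2 TPM, a 3.21-fold lower mean (-1.72 ± 0.19, adjusted p = 4.49e-06). Cyb5a, the electron donor cytochrome b5, fell by 0.39 on the log2 scale (adjusted p = 0.000178). The other 3 of the 6 tested genes of the list were not called, and 8.53% of all tested genes were called lower there. Sult1a1 was higher in PBMC-hCG mice than in IF mice, at 23.6 to 40.4 TPM (0.58 ± 0.19, adjusted p = 0.0499), whereas Sult1d1 at 13.5 to 33.7 TPM was not called. Por, the reductase that all microsomal cytochrome P450 enzymes need, was 1.22-fold the control level in PBMC mice (0.30, adjusted p = 0.0308). In PBMC-hCG mice it was 1.37-fold the control level (0.45, adjusted p = 0.00147). Ranges of both groups overlapped that of control.

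Kynurenine is a tryptophan product that binds AHR. Among tryptophan and kynurenine enzymes, 2 of 7 tested genes were called lower in the IF group compared to control and 0 higher. Of all tested genes, 8.53% were called lower and 13.4% higher there. The 2 genes were the aminotransferase genes Kyat3 (-0.69 ± 0.16 SE, adjusted p = 0.00508) and Kyat1 (-0.45 ± 0.12, adjusted p = 0.0131). Of 11 tested NRF2 target genes, Srxn1, which encodes sulfiredoxin, rose by 0.76 in the IF group (adjusted p = 0.0174), and Gsr, which encodes glutathione reductase, rose by 0.65 (adjusted p = 0.00277). Both were called lower in the PBMC-hCG group compared to the IF group (-0.81 and -0.55, adjusted p = 0.0320 and 0.0297), together with the thioredoxin reductase gene Txnrd1 (-0.52, adjusted p = 0.0407). Nqo1, which shares this regulator, differed by 0.41 there.

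**Figure D3:**
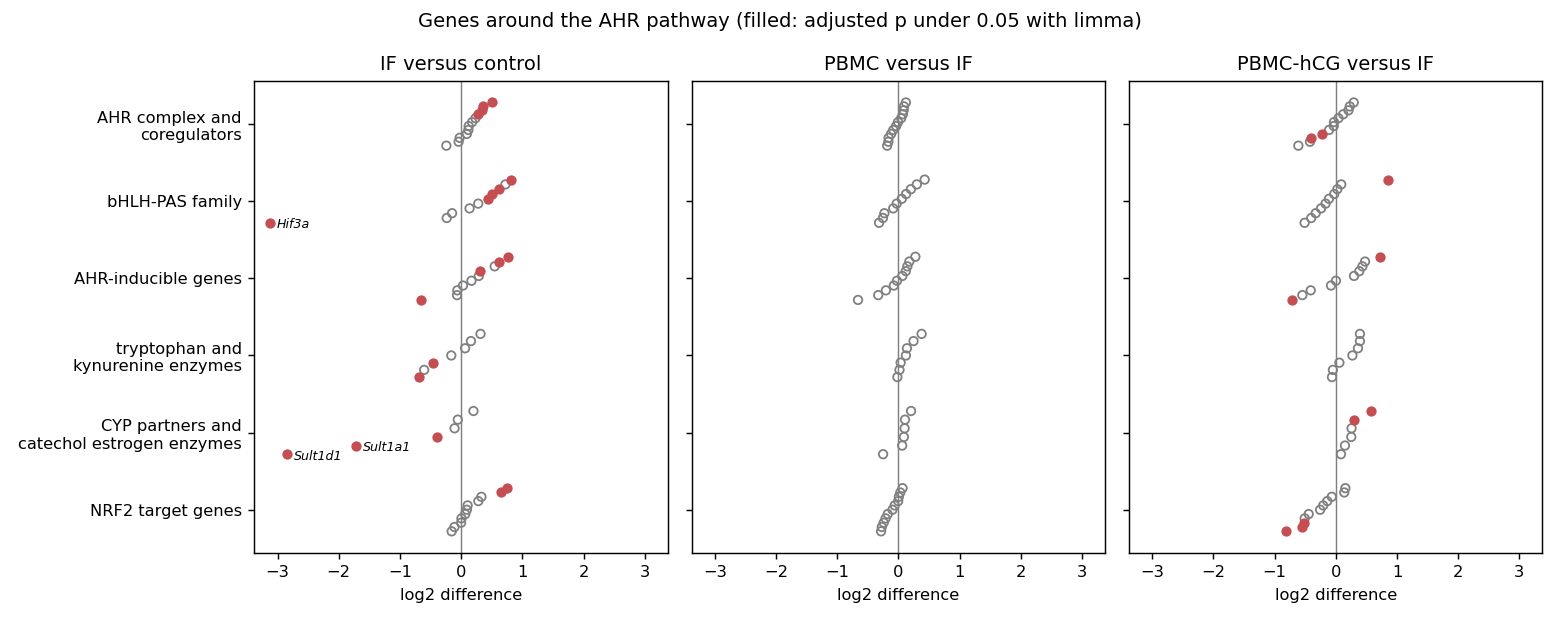
Log2 differences (horizontal axes, log2(TPM + 0.1)) of the 56 tested genes of the 6 lists (rows) in 3 comparisons (panels), with a point for each gene, filled at an adjusted p under 0.05. Filled points number 20 for IF versus control, 0 for PBMC versus IF and 10 for PBMC-hCG versus IF. Hif3a, Sult1d1 and Sult1a1 lie farthest to the left in the first panel, at -3.13, -2.85 and -1.72.

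The genes whose profile was most like that of Cyp1b1 were sought among 15770 genes with a mean of at least 1 TPM, by Pearson correlation over the 20 libraries. The closest were Hoxa11os, the antisense RNA of the Hoxa11 locus (r = 0.959), Nt5e, which encodes the AMP-cleaving ectoenzyme CD73 (0.956), Crispld1 (0.952), Raver2 (0.946) and Nrg4, which encodes an ERBB4 ligand (0.944). All 5 were highest in the control group. With the group means removed, their correlations with Cyp1b1 lay between 0.864 and 0.901. Both features follow at least in part from selecting these genes by correlation over the same 20 libraries. Nt5e measured 34.5 ± 5.0 TPM in control mice, 14.9 ± 5.89 TPM in IF mice, 14.9 ± 5.39 TPM in PBMC mice and 26.0 ± 4.13 TPM in PBMC-hCG mice. Hoxa11os measured 172 ± 15.8, 82.2 ± 22.1, 88.1 ± 29.6 and 124 ± 10.1 TPM in the same order. Libraries were stranded, but whether strand was used when Hoxa11os was quantified is not given in the sources used here, so its reads and those of its sense partner cannot be told apart.

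**Figure D4:**
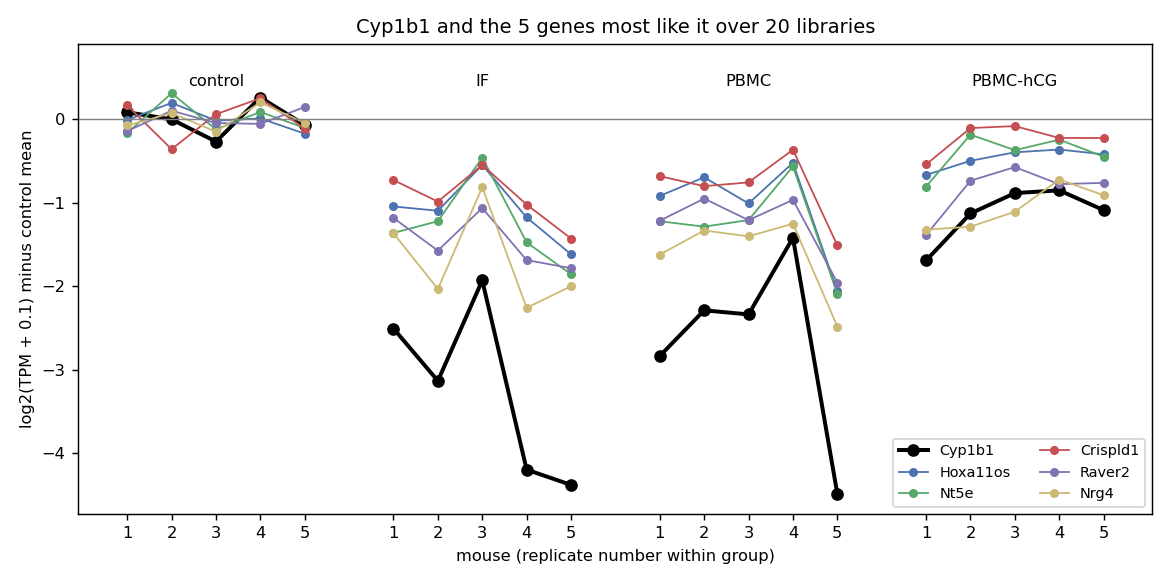
Log2(TPM + 0.1) of Cyp1b1 and the 5 genes most like it, relative to the control mean of each gene (vertical axis), in the 5 mice of each group (horizontal axis). Lines join the points of a gene within a group and mark no order among mice. Cyp1b1 (black) has the widest range of the 6, and PBMC replicate 5 and IF replicates 4 and 5, at 0.660, 0.829 and 0.718 TPM, are its lowest points.

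The genes most like Ahr were Plat, which encodes tissue plasminogen activator (r = 0.924), Dlc1 (0.912), and Ece1, the endothelin-converting enzyme (0.910). Plat measured 55.9 ± 12.1 TPM in control mice, 91.8 ± 28.6 TPM in IF mice, 98.8 ± 11.6 TPM in PBMC mice and 77.1 ± 8.45 TPM in PBMC-hCG mice. Those most like Tiparp were the folate enzyme gene Mthfd1 (0.940), the homeobox gene Pknox2 (0.940) and the serine transporter gene Sfxn1 (0.938). With the group means removed these fell to 0.590, 0.722 and 0.639, whereas those of the 3 genes like Ahr lay between 0.848 and 0.875. All of these describe genes selected by correlation over the same libraries, which share groups, and carry no p.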

How the data were processed

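RNA-seq of whole uterus covered 20 mice in 4 groups of 5. The labels gave group and replicate number, and the study's methods gave doses and times. Values are TPM per gene as deposited, which the authors made from stranded mRNA libraries with Trimmomatic, HISAT2 (mm10) and StringTie. Tool versions are not given in the sources used here. The authors tested TMM-normalized counts with the exact test of edgeR, which TPM cannot repeat.

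Here, log2(TPM + 0.1) of the 18706 genes above 0 in all 20 libraries was fitted with limma 3.58.1 (R 4.3.3) with a variance trend and all 4 groups. Calls needed a Benjamini-Hochberg adjusted p under 0.05 over all tested genes. Other computations used Python 3.11.15, pandas 2.3.3, numpy 2.4.6 and matplotlib 3.10.9. The fit was tested on simulated data.

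The 8 genes and all lists were chosen with earlier results of these data known. Named genes were the 8 genes, at most the 3 largest called changes per list, direction and comparison, the genes most correlated with Cyp1b1 (5), Ahr (3) and Tiparp (3), and cell type markers. Uncalled genes named beside them were chosen after their values were seen, and some listed genes are not reported here. Alternatives were pseudocounts of 0.01 and 1, no filter, quantile normalization, fits of only the 2 groups, the replicate number as a block, the criteria of the study (2-fold or more with a raw p under 0.05), and each mouse left out in turn. Promoter windows were those of RefSeq, GRCm38.p6.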

Additional observations from a re-analysis of the deposited data

Results flagged for a closer look

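Arnt was lower in PBMC-hCG replicate 4, at 47.75 TPM, than in the other mice of its group, which lay between 50.1 and 50.5 TPM. Its gap to the nearest mouse was 0.842 of the range of the group, above the Dixon limit of 0.71 for 5 values. It was the only one among 28 groups of 5 values tested, and chance alone passes this limit in about 1 of 20 groups. The value remained above all control mice.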

How the results depend on the processing

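The directions of Cyp1b1, Ahr, Arnt and Tiparp against control held under every alternative run. The criteria of the study (2-fold or more with a raw p under 0.05) moved the calls among the 5 tested genes to 0 for IF, 1 for PBMC and 1 for PBMC-hCG compared to control, and those among the listed pathway genes to 3, 4 and 3, with 0 for PBMC-hCG compared to IF. Under the same criteria, 754, 82, 432, 167, 625 and 887 of all tested genes were called for IF versus control, PBMC versus IF, PBMC-hCG versus IF, PBMC-hCG versus PBMC, PBMC versus control and PBMC-hCG versus control. In a fit of only the 2 groups, 1 of the 5 genes was called for PBMC versus control and 2473 of all genes for IF versus control, and Ahr was not called for PBMC-hCG versus control (adjusted p = 0.0570). Without the filter, PBMC-hCG versus IF gave 3 pathway genes and 812 of all genes, PBMC versus IF gave 1 gene, and the adjusted p of Ahr for PBMC-hCG versus control was 0.0686. With quantile normalization the latter was 0.0912. With a pseudocount of 1, 1 gene was called for PBMC-hCG versus PBMC.

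Of 30 pairs of mice with the same replicate number, 8 had a correlation over 0.1 (range -0.25 to 0.46). The highest values lay among replicate 5 of the control, IF and PBMC groups. They were 0.40 for control with IF, 0.27 for control with PBMC and 0.46 for IF with PBMC. Replicate 5 of the PBMC-hCG group had -0.06, -0.09 and -0.08 with the same mice. Mice with different numbers were not compared, so whether numbers mark a shared batch was not tested. The labels give no batch, and the numbers were not taken as pairs. With the replicate number as a block, the pathway genes called for PBMC-hCG versus IF numbered 17 in place of 10, and Cyp1b1 for PBMC versus control kept its difference of -2.67. The block changed no call among the 5 genes and moved no other count of calls by over 1.5 times.

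With each mouse left out in turn, the calls among the 5 genes lay between 3 and 4 for IF versus control, 3 and 3 for PBMC versus control and 2 and 3 for PBMC-hCG versus control. Calls among pathway genes lay between 17 and 22, 13 and 22, and 15 and 23 in the same order, and between 0 and 22 for PBMC-hCG versus IF. All-gene calls lay between 3323 and 5012 for IF versus control, 0 and 2 for PBMC versus IF, 0 and 5061 for PBMC-hCG versus IF, 2 and 7 for PBMC-hCG versus PBMC, 2959 and 4628 for PBMC versus control and 4756 and 7513 for PBMC-hCG versus control. Small differences crossed 0, namely Ahr for PBMC versus IF (-0.0818 to 0.0845), Ahrr for PBMC versus control (-0.158 to 0.145), Arnt, Tiparp and Nqo1 for PBMC-hCG versus PBMC (-0.0162 to 0.0174, -0.0568 to 0.138 and -0.139 to 0.0461) and Nqo1 for PBMC-hCG versus control (-0.00259 to 0.322). The cause of these shifts was not tested. TPM gives no depth, so counting error at low levels, such as those of Ahrr and Cyp1a1, is unknown.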

Other observations

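Tdo2, whose enzyme tryptophan 2,3-dioxygenase starts the kynurenine route, was above 0 in 19 of 20 mice and was not tested. It ranged from 5.66 to 63.3 TPM in control mice (median 10.6 TPM), from 0.153 to 1.17 TPM in IF mice, from 0 to 0.653 TPM in PBMC mice and from 0.237 to 1.42 TPM in PBMC-hCG mice. Every control mouse was above every RU486-treated mouse, and the 3 treated groups overlapped.

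Ereg, which encodes the EGF family ligand epiregulin and is listed here among AHR-inducible genes, was listed at 0 in all 5 PBMC-hCG mice. It reached 1.53 TPM in the control group, 2.28 TPM in the IF group and 1.46 TPM in the PBMC group, and was listed at 0 in 1 control and 1 PBMC mouse. Both genes were picked after their values were seen.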
